A study of Mus musculus with 2 samples.

Results

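The Polycomb repressive complex genes are a list of 10 genes taken by name: *Ezh2*, *Ezh1*, *Suz12*, *Eed*, *Rbbp4*, *Rbbp7* and *Jarid2* of Polycomb repressive complex 2 (PRC2), and *Bmi1*, *Rnf2* and *Ring1* of Polycomb repressive complex 1 (PRC1). Of these, 9 are among the 10666 genes of the expression table and are described here, 7 of PRC2 and 2 of PRC1. The expression of *Bmi1* was not analysed here. The cells come from wild-type C57BL/6 mouse embryos at embryonic day 14.5, whose dorsal telencephalon was grown as free-floating neurospheres in medium with B27 without retinoic acid, N2, 10 ng/ml EGF and 10 ng/ml bFGF, profiled by droplet-based 3′ single-cell RNA-seq. The series holds 2 replicate cultures of this 1 condition, so the question asked is how each gene varies over the cell cycle within a culture. No label says whether the cultures began from separate embryos.

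Polycomb complexes keep developmental genes silent through marks on histone tails. PRC2 places methyl groups on lysine 27 of histone H3: *Ezh2* or its paralogue *Ezh1* is the catalytic subunit, *Suz12* and *Eed* are needed for its activity, *Rbbp4* and *Rbbp7* are histone-binding subunits that also serve other chromatin complexes, and *Jarid2* is an accessory subunit. PRC1 places ubiquitin on histone H2A through the E3 ligases *Rnf2* and *Ring1*, and in the developing cortex both complexes are known for controlling the timing of neural progenitor fates.

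Expression was read along the cell-cycle position that the authors deposited for each cell, a polar angle that runs once round a circle from 0 to 2π and stands for progress through the cycle, not for clock time. The position was computed from cell-cycle genes of these same cells, and whether any Polycomb gene was among them is not known here. As landmarks, the lines of the replication genes *Mcm6* and *Pcna* were highest at 0.66π to 0.77π, that of *Top2a* (topoisomerase needed to separate chromosomes) at 1.03π and 0.95π, and those of the mitotic genes *Ccnb1* and *Cdc20* at 1.26π to 1.34π, giving the value of both cultures or their range. The arc from 1.75π to 2π held the most cells, 1789 in culture 1 and 3149 in culture 2. The arc from 1.5π to 1.75π held the fewest, 64 and 189.

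There were 5748 cells in culture 1 and 7057 in culture 2, with a median of 19477 and 14637 UMIs (unique molecular identifiers) per cell, and 48 cell barcodes occur in both. Of 10 markers of neural progenitors 8 are in the table, and *Fabp7*, *Vim*, *Slc1a3* and *Nes* were above 0 in at least 89.8% of cells of either culture. The others were lower: *Hes1* was above 0 in 44.5% and 50.5% of cells, *Msi1* in 22.3% and 21.4%, *Pax6* in 21.1% and 23.1%, and *Prom1* in 2.51% and 2.17%. Of 7 markers of oligodendrocyte progenitors 5 are in the table, and 1 of these, *Olig2*, was above 0 in 97.3% and 91.9% of cells. The others were lower, with *Lhfpl3* above 0 in 41.7% and 24.5% of cells, *Cspg4* in 11.8% and 13.7%, *Pdgfra* in 8.77% and 1.81%, and *Sox10* in 4.26% and 0.751%. Of 8 markers of neuroblasts only *Dcx* is in the table, above 0 in 7.34% and 1.56% of cells, so Polycomb genes were not compared between progenitors and neuroblasts. Of 4 astroglial markers only *S100b* is in the table, and no marker listed for microglia, endothelium, mesenchyme or red blood cells is among the genes analysed. The mean value of *Dcx* was nevertheless 0.0918 in culture 1 and 0.0905 in culture 2. Over all genes the 2 cultures' means differed by a median of 0.16 on the log2 scale and their shares of cells above 0 by a median of 0.37. Mean levels of the Polycomb genes are therefore not compared between cultures here. Between genes, only shares of cells above 0 are set side by side, and low values are named as a limit.

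*Ezh2*, the principal methyltransferase of PRC2, rose and fell once over the cycle in both cultures. Cells between 0.75π and π had a mean value of 3.78 in culture 1 and 4.01 in culture 2, against a lowest class mean of 0.752 between 1.5π and 1.75π in culture 1 and of 0.914 between 1.75π and 2π in culture 2. These are 5.02-fold and 4.39-fold differences between classes within a culture (4.71 ± 0.449, mean ± SD, n = 2 cultures). The circle was cut into 8 classes of equal width for this purpose. *Ezh2* was above 0 in 98.0% and 96.0% of cells in the highest class, and in 42.2% and 46.2% of cells in the lowest class, so its transcript was detected in many cells at every position.

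The line of *Ezh2*, a periodic loess of log2(value + 1) over the position, had its maximum at 0.83π in the first culture and 0.87π in the second. It reached 2.10 and 2.15 on the log2 scale at these places and fell to 0.56 and 0.64 at 1.72π and 1.75π. The distance from lowest to highest point, called the range, was thus 1.55 in culture 1 and 1.52 in culture 2 (1.53 ± 0.02, SD, n = 2). The size of this range depends on the constant added before taking logarithms, and its mean was 3.26 with 0.1 added in place of 1. The position explained a share of the variance among cells, R², of 0.418 in culture 1 and 0.340 in culture 2. Ranked by the lower of the cultures' R², *Ezh2* was number 55 of 10666 genes, and its range was larger than that of 99.7% of them. Its maximum lay after those of *Mcm6* and *Pcna* and before that of *Top2a* in each culture at this width of smoothing.

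**Figure D1:**
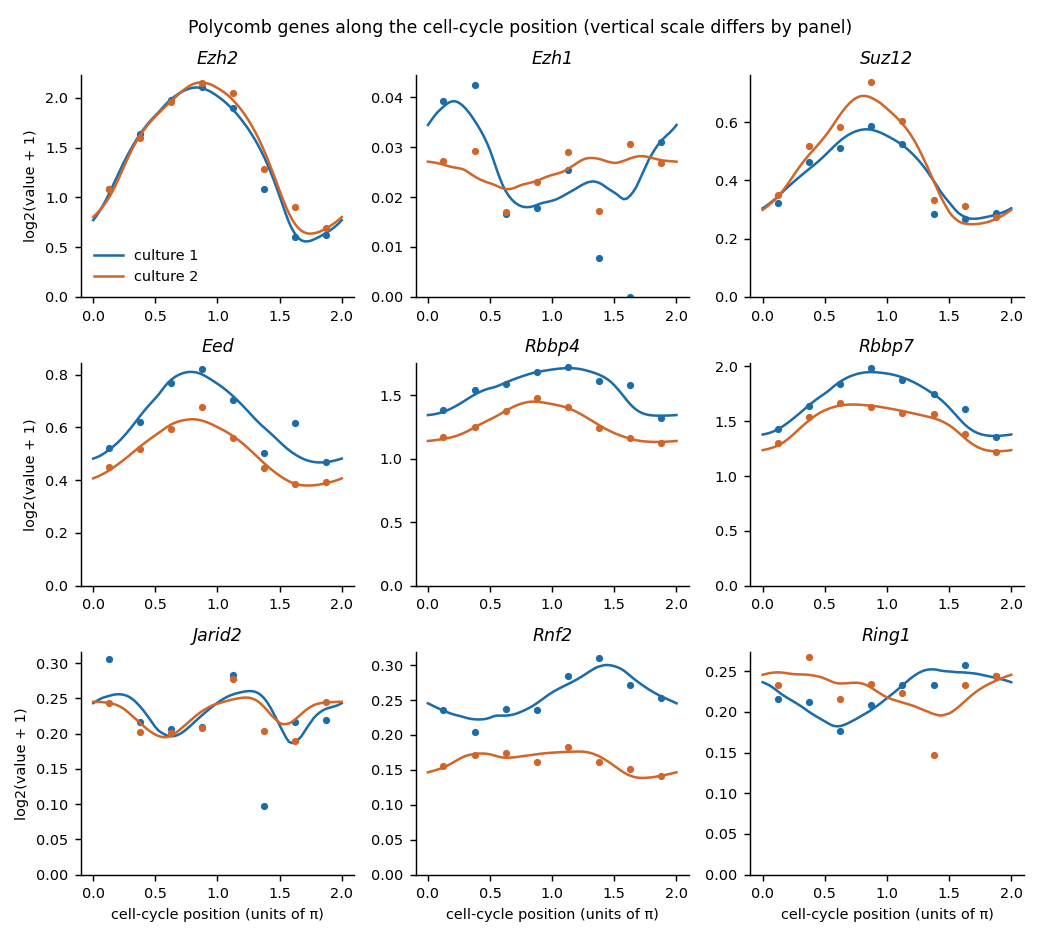
Mean log2(value + 1) along the cell-cycle position in units of π for the 9 Polycomb genes, with the periodic loess line of each culture and points at the means of 8 classes of position (blue, culture 1, 5748 cells; orange, culture 2, 7057 cells). *Ezh2* spans 1.55 and 1.52 on the log2 scale, *Suz12*, *Eed*, *Rbbp4* and *Rbbp7* span 0.25 to 0.58 with a single broad rise, and *Ezh1*, *Jarid2*, *Rnf2* and *Ring1* span at most 0.08; vertical scales differ between panels.

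Along the classes, *Ezh2* rose from 1.75π onwards, as *Mcm6* did, whose mean log2 value went from 0.16 and 0.13 to 0.54 and 0.53 and then to 1.19 and 1.03 over the first 3 of the classes named next. The mean log2 value of *Ezh2* was 0.62 and 0.69 between 1.75π and 2π, 1.08 in both cultures between 0 and 0.25π, and 1.64 and 1.59 between 0.25π and 0.5π. It then stood at 1.97 and 1.96 between 0.5π and 0.75π, at 2.11 and 2.15 in the highest class, and at 1.90 and 2.05 between π and 1.25π. The fall followed in the next 2 classes, which hold few cells, with 1.09 and 1.28 and then 0.60 and 0.90. The class from 0.75π to π exceeded the next one in order by more than the SD between cultures (0.15 ± 0.08), whereas the classes at π to 1.25π and at 0.5π to 0.75π did not differ beyond it (0.01 ± 0.12).

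Levels were also read by the Seurat stages that the authors deposited for each cell. Mean log2 values of *Ezh2* were 0.73 and 0.77 in G1 cells, 1.92 and 1.82 in S cells, and 1.89 and 1.86 in G2M cells. S exceeded G1 by 1.19 in culture 1 and 1.05 in culture 2, and G2M exceeded G1 by 1.16 and 1.10. On the linear scale, the mean value of *Ezh2* was 3.30 and 3.17 in S cells and 3.23 and 3.37 in G2M cells, so the order of these stages differed between the cultures. It also did with the stages of cyclone, with 3.84 and 3.66 in S (133 and 56 cells) and 3.48 and 3.89 in G2M. The cyclone mean in G1 was 1.92 and 1.64, over 4483 and 5840 cells, where Seurat placed 2440 and 3931 cells. The authors report that cyclone appears to label S cells poorly. The deposited assignment to 5 stages leaves part of the cells without a stage (57.4% and 55.3% have one). In it the mean value of *Ezh2* was highest in S (3.86 and 3.23) and lowest in M.G1 (1.28 and 1.18). Values were intermediate in G1.S (2.95 and 2.60), G2 (1.80 and 1.89) and G2.M (1.82 and 2.22). These G2 and G2.M means lay well below the G2M means of Seurat and of cyclone in both cultures. The authors report that this assignment misses many labels and places G0/G1 cells in other stages.

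A gene was called as varying with the position when its R² was at least 0.05 in both cultures. By this rule 1 of the 9 Polycomb genes was called, *Ezh2*, against 3.90% of all 10666 genes (416). In culture 1 alone *Ezh2* and *Rbbp7* reached the threshold, where 5.40% of all genes did, and in culture 2 alone *Ezh2* and *Suz12* did, where 4.13% of all genes did. With 9 genes, 1 call corresponds to 11.1%, and no test was made of this share against the background. Just below the threshold lay *Suz12* with a lower R² of 0.0435 and *Rbbp7* with 0.0399.

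**Figure D2:**
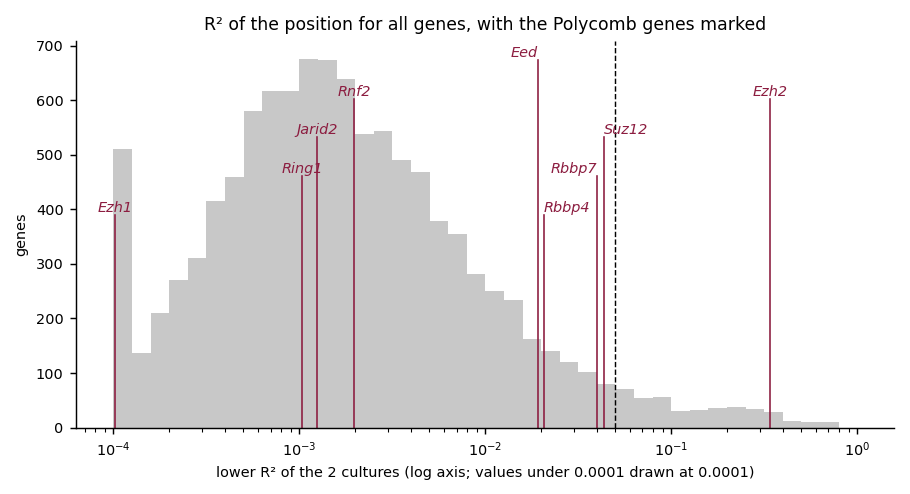
Histogram of the lower R² of the 2 cultures over all 10666 genes (log axis; vertical axis, number of genes), with a red line at the value of each Polycomb gene and a dashed line at the threshold of 0.05. *Ezh2* stands at 0.340, *Suz12*, *Rbbp7*, *Rbbp4* and *Eed* stand between 0.0191 and 0.0435, and the others stand below 0.002.

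*Suz12*, a subunit required for the methyltransferase activity of PRC2, had its maximum close to that of *Ezh2*, at 0.84π in the first culture and 0.81π in the second. Its mean value was 0.665 and 0.896 between 0.75π and π. The lowest class mean in culture 1 was 0.278, between 1.5π and 1.75π (64 cells). In culture 2 it was 0.322, between 1.75π and 2π, where culture 1 had 0.319. *Suz12* thus differed 2.39-fold and 2.78-fold between its highest and lowest class (2.59 ± 0.274, SD, n = 2). It was above 0 in 53.6% and 57.3% of cells of the highest class, and in 26.3% and 21.2% of cells between 1.75π and 2π. Its line spanned 0.31 and 0.44 on the log2 scale, with R² of 0.0435 and 0.0652. The class from 0.75π to π was the highest in both cultures, and each step down the order of classes except the last exceeded the SD between cultures.

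Promoters of all 10 genes were matched by symbol to RefSeq windows on GRCm38.p6 of 300 bases, most of each lying before the start of transcription, and were searched for exact matches on both strands of TTTCCCGC and TTTGGCGC, forms of the E2F site known from S phase genes, of TTTGAA, a form of the CHR element, and of CCAAT. An E2F form occurred in the windows of *Ezh2* and *Suz12* and not in those of the other 8 genes, and 1.56% of all 32851 windows hold one. The stretches that hold it are shown because these are the catalytic gene that was called and the subunit nearest to the threshold, with the match in capitals. That of *Ezh2* lies at chr6:47595009-47595038 on the minus strand, 8 bases before to 22 bases after the start, and that of *Suz12* at chr11:79992876-79992935 on the plus strand, 230 to 171 bases before it.
Ezh2: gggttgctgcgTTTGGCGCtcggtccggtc
Suz12: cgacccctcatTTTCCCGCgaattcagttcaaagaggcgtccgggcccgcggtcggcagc
The match of *Ezh2* covers bases 4 to 11 from the RefSeq start, and that of *Suz12* lies 219 to 212 bases before it. TTTGAA, held by 17.9% of all windows, occurred in those of *Suz12* and *Eed*. CCAAT, held by 37.4%, occurred in those of *Ezh2*, *Suz12*, *Eed*, *Rbbp4*, *Rbbp7* and *Jarid2*. A match describes the letters of the window only.

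*Eed*, which binds the methylated histone, followed the same course at a smaller range. Its line was highest at 0.79π and 0.80π, and spanned 0.34 and 0.25. Class means fell from 0.964 and 0.822 between 0.75π and π to 0.529 and 0.474 between 1.75π and 2π, which is 1.82-fold and 1.73-fold. Detection moved with it, from 69.5% and 51.5% of cells in the highest class to 41.2% and 29.0%. R² was 0.0459 in culture 1 and 0.0191 in culture 2, so *Eed* was not called in either culture.

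The histone-binding subunits *Rbbp4* and *Rbbp7* were detected in most cells at every position and rose by less than *Ezh2*. *Rbbp7* had class means of 3.37 in culture 1 (0.75π to π) and 2.74 in culture 2 (0.5π to 0.75π) at its highest, and of 1.95 and 1.81 between 1.75π and 2π, a 1.73-fold and a 1.51-fold difference. Its line spanned 0.58 and 0.43 with R² of 0.103 and 0.0399. *Rbbp4* had its highest class mean, 2.68, between π and 1.25π in culture 1 and its highest, 2.25, between 0.75π and π in culture 2, against 1.87 and 1.63 between 1.75π and 2π, which is 1.43-fold and 1.38-fold. Its line was highest at 1.14π and 0.85π, spanned 0.37 and 0.32, and had R² of 0.0465 and 0.0206. The first 2 classes in the order of *Rbbp4* (0.02 ± 0.08) and of *Rbbp7* (0.05 ± 0.13) did not differ beyond the SD between cultures, so the place of the maximum of these genes is known less closely than that of *Ezh2*.

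Between the Seurat stages, the 4 genes *Suz12*, *Eed*, *Rbbp4* and *Rbbp7* were higher in S and in G2M than in G1 in both cultures. The difference of S from G1 was 0.21 and 0.28 for *Suz12*, 0.29 and 0.19 for *Eed*, 0.28 and 0.22 for *Rbbp4*, and 0.46 and 0.37 for *Rbbp7*. The median difference over all genes was -0.000231 in culture 1 and 0.00278 in culture 2. Each of these 4 differences was smaller than that of *Ezh2* in the same culture, on a log2 scale that understates the change of lowly expressed genes such as *Suz12*.

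*Ezh1*, the other catalytic subunit, was near the limit of detection and had no line that the cultures shared. It was above 0 in 183 cells of culture 1 (3.18%, exact 95% binomial interval 2.75 to 3.67) and 206 cells of culture 2 (2.92%, 2.54 to 3.34), intervals that cover counting error only. R² was 0.00248 and 0.000102, and the range 0.02 and 0.01. A course opposite to that of *Ezh2*, or any other, was not detectable at this depth. *Ezh2*, by comparison, was above 0 in 77.6% and 66.8% of cells.

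*Jarid2*, *Rnf2* and *Ring1* varied little with the position, with values near the medians of all genes. *Jarid2* was above 0 in 21.4% and 20.9% of cells, with a range of 0.07 and 0.06 and R² of 0.00266 and 0.00125. The mean range of *Jarid2* over the cultures, 0.07, became 0.15 with a span of 0.1, 0.14 with a span of 0.2 or 2 harmonics, and 0.02 with a span of 0.5, and its maximum moved from 1.27π to 0.18π in culture 1 with a span of 0.2. *Rnf2*, the main E3 ligase of PRC1, was above 0 in 35.0% and 19.4% of cells, with a range of 0.08 and 0.04 and R² of 0.00237 and 0.00197. *Ring1*, its paralogue, was above 0 in 20.5% and 21.1% of cells, with a range of 0.07 and 0.05 and R² of 0.00202 and 0.00104. Over all genes the median of the lower R² was 0.0015 and the median of the mean range was 0.07. The lowest class mean of *Jarid2* in culture 1, 0.110, rests on the 85 cells between 1.25π and 1.5π.

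The profiles of the cultures over 16 classes of position were compared gene by gene. The Pearson correlation between cultures was 0.975 for *Ezh2*, 0.945 for *Suz12*, 0.809 for *Eed*, 0.766 for *Rbbp4* and 0.722 for *Rbbp7*. It was 0.227 for *Rnf2*, 0.1 for *Ezh1*, 0.069 for *Jarid2* and -0.223 for *Ring1*, where the median of all genes was 0.331. These are descriptions over 16 classes of the same cells, with at least 25 cells in culture 1 and 83 in culture 2, in which differences of depth along the position are shared by all genes.

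Depth also differed along the position. Cells between 0.75π and π had a median of 22967 UMIs in culture 1 and 17148 in culture 2, and cells between 1.75π and 2π had 18437 and 13991. Depth was lowest between 1.25π and 1.5π, at 14111 and 11882, in classes of 85 and 279 cells. In culture 1 it was highest between 0.75π and π, the class where *Ezh2* was highest. In culture 2 depth was highest between π and 1.25π, at 17813. The deposited values are normalized for depth, and undoing this by multiplying with each cell's total UMIs raised the R² of *Ezh2* to 0.464 and 0.378, of *Suz12* to 0.0675 and 0.0867, and of *Rbbp7* to 0.153 and 0.0666, so that these 3 were called, where 5.28% of all genes were. Removing the part of the log2 values that followed total UMIs left R² of the position at 0.386 and 0.301 for *Ezh2*, 0.0334 and 0.0489 for *Suz12*, and 0.0841 and 0.0371 for *Rbbp7*. *Ezh2* was called in all of these, and its S minus G1 difference was 1.23 and 1.07 without the depth normalization. Whether more RNA per cell has a part in the course of *Ezh2* or in the smaller differences of the other subunits was not tested.

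**Figure D3:**
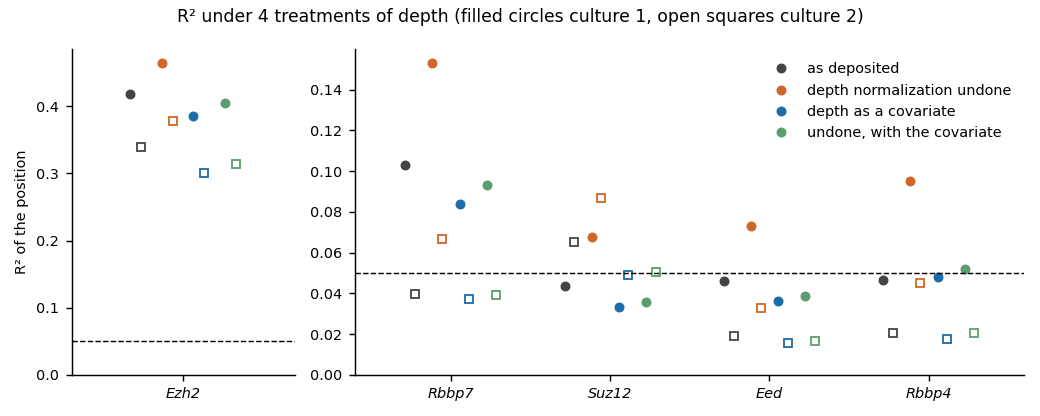
R² of the position for the 5 Polycomb genes with the largest range under 4 treatments of depth (filled circles, culture 1; open squares, culture 2; dashed line, threshold of 0.05; the panels have different vertical scales). *Ezh2* lies at 0.301 or above throughout, while *Suz12* and *Rbbp7* pass the threshold in both cultures only with the depth normalization undone.

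To read the genes along a position that none of them helped to set, the angle was rebuilt in each culture from 91 of Seurat's S and G2M genes, which include no Polycomb gene. It had a circular correlation with the deposited position of 0.931 in culture 1 and 0.913 in culture 2. Along it *Ezh2* had R² of 0.405 and 0.315, and was again the 1 Polycomb gene called, where 3.83% of all genes were.

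The genes most like *Ezh2* were sought among the 416 called genes, by the lower of the cultures' Pearson correlations with *Ezh2* over the 16 classes. They were *Usp1* (deubiquitinase of the DNA damage response, 0.988), *Dek* (chromatin-binding protein, 0.976) and *Rbmx2* (RNA-binding protein, 0.957). The line of *Usp1* had its maximum at 0.81π and 0.83π with a range of 1.51 and 1.53. That of *Dek* had its maximum at 0.82π and 0.77π with a range of 1.95 and 2.10, and that of *Rbmx2* at 0.76π and 0.78π with a range of 0.71 and 0.70. Of the 416 called genes, 131 (31.5%) had their mean place of maximum between 0.75π and π, so this place is shared widely.

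**Figure D4:**
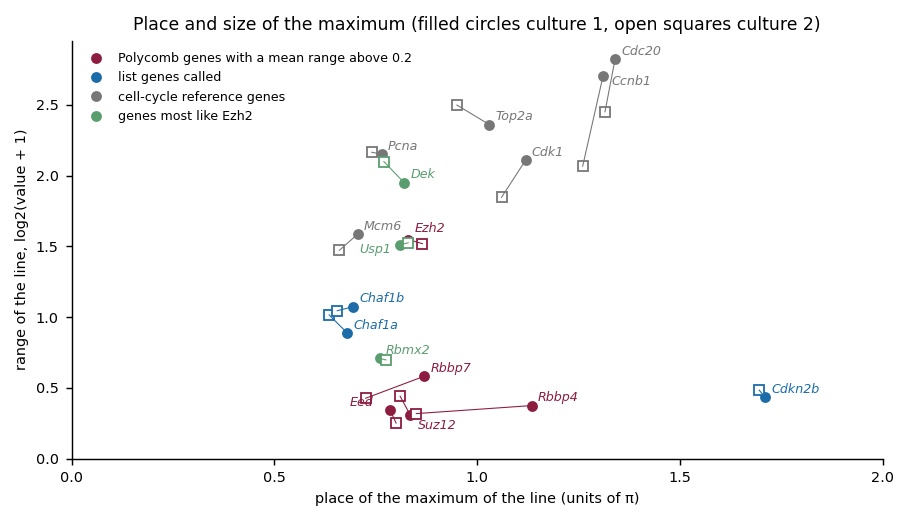
Place of the maximum of the line (horizontal axis, units of π) against the range of the line (vertical axis, log2(value + 1)) for the 5 Polycomb genes with a mean range above 0.2, the list genes called, the 6 cell-cycle reference genes and the 3 genes most like *Ezh2*, with the cultures joined by a line (filled circle, culture 1; open square, culture 2). *Ezh2* lies beside *Usp1* near 0.83π with a range of 1.55, the other PRC2 subunits lie at or below 0.58, and *Cdkn2b* alone lies beyond 1.5π.

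Other genes of the pathway were read from lists by role: 69 genes of PRC2 accessory subunits, PRC1 subunits, the deubiquitinase complex PR-DUB, histone demethylases and methyltransferases, and further complexes of *Rbbp4* and *Rbbp7*. Of these 62 are in the table, and 2 were called, *Chaf1a* and *Chaf1b*, against 3.90% of all genes. Both are subunits of CAF-1, a histone chaperone at replication forks that also contains *Rbbp4*. The line of *Chaf1a* spanned 0.89 and 1.02 with its maximum at 0.68π and 0.64π, and that of *Chaf1b* spanned 1.07 and 1.04 with its maximum at 0.70π and 0.66π, each earlier on the circle than the maximum of *Ezh2* in the same culture.

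None of the other 60 list genes was called, and the median of the lower R² over the 62 was 0.00353, where that of all genes was 0.0015. The PRC2 accessory subunits with the largest lower R² were *Mtf2* (0.0248) and *Phf19* (0.0218), whose lines were highest at 0.99π and 0.82π and at 0.94π and 0.97π. Their ranges were 0.24 and 0.31 for *Mtf2*, a DNA-binding recruiter of PRC2, and 0.07 in each culture for *Phf19*. In PRC1, the largest lower R² was 0.0264 for *L3mbtl2* and 0.0205 for *Yaf2* among the subunits of variant complexes, 0.0148 for *Cbx6* and 0.00561 for *Phc1* among those of canonical complexes, and 0.0112 for *Pcgf5* and 0.00713 for *Pcgf6* among the paralogues of *Bmi1*.

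Among the opposing enzymes no gene was called. The H3K27 demethylases *Kdm6b* and *Kdm6a* had a lower R² of 0.0059 and 0.000687, and the line of *Kdm6b* was highest at 1.44π and 1.43π and lowest at 0.67π and 0.73π, with a range of 0.18 and 0.14. That maximum rests on few cells, since the class from 1.25π to 1.5π holds 85 and 279. For PR-DUB, which removes ubiquitin from histone H2A, the leading genes were *Asxl1* (0.0145) and *Asxl2* (0.00591). For the H3K4 methyltransferases they were *Dpy30* (0.0305), with R² of 0.0622 in culture 1, and *Wdr5* (0.0107). Of the NuRD and SIN3 deacetylase complexes, which share *Rbbp4* and *Rbbp7* with PRC2, *Mbd3* (0.0162) and *Hdac2* (0.0136) led.

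Of a list of 42 genes that Polycomb is known to silence, only *Cdkn2a* and *Cdkn2b* are in the table and none of its 39 Hox genes is, so the list itself could not be described. Both encode inhibitors of the cell cycle. *Cdkn2b* was called, with R² of 0.0681 and 0.0514, and *Cdkn2a* was not, with 0.0169 and 0.0344. The call of *Cdkn2b* was lost with a span of 0.5, a pseudocount of 0.1, a threshold of 0.1 and the depth normalization undone.

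In both cultures *Cdkn2a* and *Cdkn2b* were highest in a class where *Ezh2* was near its lowest, but the courses were not opposite throughout. In culture 1 *Cdkn2b* had its lowest mean value, 0.254, between 1.25π and 1.5π (85 cells). It was also low in that culture between 1.5π and 1.75π (64 cells), where *Ezh2* was lowest. The share of all genes highest between 1.75π and 2π was not counted. Mean values of *Cdkn2b* were 0.970 and 0.956 between 1.75π and 2π, and 0.269 and 0.254 between 0.75π and π, the highest class of *Ezh2*. It was above 0 in 44.7% and 43.0% of the first cells and in 22.5% and 20.1% of the second. *Cdkn2a* had a mean log2 value of 0.91 in each culture between 1.75π and 2π, and its lowest class mean, 0.59 and 0.42, lay between 0.5π and 0.75π. S fell below G1 by 0.35 and 0.36 on the log2 scale for *Cdkn2b* and by 0.22 and 0.39 for *Cdkn2a*. The line of *Cdkn2b* peaked at 1.71π and 1.70π, within the arc of fewest cells, where the class mean itself was only 0.327 in culture 1, so its maximum is better placed by the class from 1.75π to 2π.

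**Figure D5:**
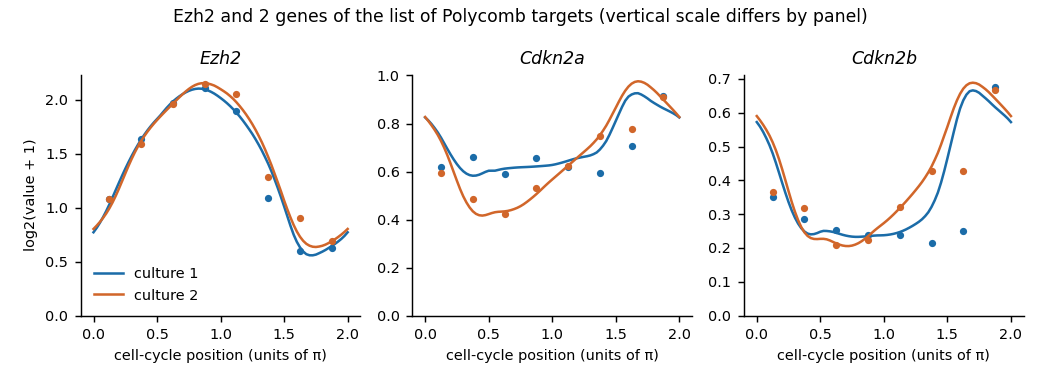
Mean log2(value + 1) along the cell-cycle position in units of π for *Ezh2*, *Cdkn2a* and *Cdkn2b*, with lines and class means as above (blue, culture 1; orange, culture 2; vertical scales differ). The class from 1.75π to 2π holds the highest means of *Cdkn2a* and *Cdkn2b*, and means of 0.62 and 0.69 for *Ezh2*.

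In GENCODE annotation of GRCm38, *Ezh2* spans chr6:47530139-47595341 on the minus strand, starting upstream of the RefSeq start so that the whole stretch shown lies inside the gene, and *Suz12* spans chr11:79993106-80034123 on the plus strand, with the stretch shown upstream of it. Genes of the table overlap *Eed* (E230029C05Rik), *Rbbp7* (*Txlng*) and *Rnf2* (*Trmt1l*), in each case on the opposite strand. The R² of *Txlng* was 0.00285 and 0.00134, that of *Trmt1l* was 0.00272 and 0.00162, and that of E230029C05Rik was 0.000528 and 0.00118.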

How the data were processed

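The deposited expression values are a depth-normalized signal on a linear scale, made by the authors from spliced UMI counts (Alevin of Salmon 1.3.0, GRCm38 with GENCODE annotation) after removal of cells outlying in UMIs, genes, mitochondrial share or doublet score, of mitochondrial genes and of rarely expressed genes. The authors also deposited each cell's total UMIs, which sum estimated counts, its position and its stages. All deposited cells were kept, with no further doublet call. The value that stands for 1 UMI differed between genes and cultures, so counts were not recovered and no count model was fitted.

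Symbols were found for 10662 of the 10666 genes. Values were transformed as log2(value + 1), and a periodic loess (tripled data, degree 2, span 0.3) was fitted to every gene within each culture. Levels were averaged in classes of 0.25π, and profiles over 16 classes. The code was tested on simulated data and against loess of R. The versions were numpy 2.4.6, pandas 2.3.3 and scipy 1.17.1 under Python 3.11.15. With 1 condition and 2 cultures there is no group to test, cells are not replicates, and no p-value is given; SDs are between the cultures and may be technical. Gene positions are those of GENCODE vM21, an earlier release than that of the authors.

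The genes and lists were chosen with earlier results of these data known. Genes named are the Polycomb genes, every list gene called and otherwise the 2 of each list with the largest lower R², the 3 genes most like each Polycomb gene called, the cycle reference genes and the cell type markers. The alternatives were other spans, 2 harmonics, other R² thresholds, a pseudocount of 0.1, the depth normalization undone, depth as a covariate, a rebuilt position, a filter on detection and each culture alone. Stage differences under other scalings, leaving out the arc of few cells, and the undone normalization with depth as a covariate were added after seeing the data.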

Additional observations from a re-analysis of the deposited data

How the results depend on the processing

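*Ezh2* was called under all 15 alternatives. The number of Polycomb genes called rose from 1 to 3 (*Ezh2*, *Rbbp7* and *Suz12*) with the depth normalization undone and to 4 (with *Rbbp4* as well) with an R² threshold of 0.02, and was 2 with either culture left out, since *Suz12* reached the threshold in culture 2 alone and *Rbbp7* in culture 1 alone; under the other alternatives it stayed at 1. The 3 genes called in the pathway and target lists became 5 with the depth normalization undone, 8 with the threshold of 0.02, 3 to 4 with either culture left out, and 2 with a span of 0.5, a pseudocount of 0.1 or a threshold of 0.1; *Cdkn2b* lost its call in these last 3 and with the depth normalization undone. Over all genes 853 passed a threshold of 0.02 and 232 one of 0.1, against 416. No difference between stages that was larger than its SD between cultures changed sign. Places and ranges were not computed with depth as a covariate. Under the settings where it was computed, the place of the maximum of *Ezh2*, averaged over the cultures, lay between 0.83π and 0.95π. In a single culture it lay between 0.81π (rebuilt position) and 1.01π (span 0.1). The mean range of *Ezh2* went from 1.19 with a span of 0.5 to 3.26 with a pseudocount of 0.1, which also raised the S minus G1 difference to 2.39. Leaving aside single cultures, 35 of the 72 ranges of a gene under an alternative moved by more than the SD between the cultures, and 30 of the 72 places did. The SD rests on 2 cultures. Place and size of a minimum near 1.7π rest on few cells, and *Ezh1* was detected in too few cells to show a course. No paired analysis was possible because there is 1 condition, so the replicate numbers mark no pairs between groups.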
